A study of Mus musculus with 2 samples.

Results

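Tal1, Lyl1, Lmo2, Gata2, Fli1, Erg and Ldb1 are transcription factor genes, or genes for their partners, that act in blood and vessel development. They were taken by name, 7 of the 23154 genes in the deposited count tables, and read in all 87 cells of both libraries. Every cell was a PK44 cell, a cell with the surface pattern CD41- CD43- CD45- CD31+ CD201+ Kit+ CD44+ that the study uses to enrich hemogenic endothelial cells, the endothelial cells from which blood stem cells arise. The cells came from the yolk sac of C57BL/6 mouse embryos at embryonic stage E10.0, midgestation, and were untreated. Cells in good condition were picked by mouth pipette and sequenced by a modified single-cell tagged reverse transcription protocol (STRT-seq), which counts 3′ transcript ends by unique molecular identifier (UMI). Library 1 held 43 cells and library 2 held 44, and the labels do not say whether they came from separate litters. There was therefore 1 condition with 2 libraries, and the questions asked were how much of each factor gene the cells contained, and whether it differed between cells with more or less Runx1, the gene for a factor needed for blood emergence, or more or less Cdh5, the gene for VE-cadherin of endothelial junctions.

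Tal1 (also called SCL) and Lyl1 are related basic helix-loop-helix factors that bind DNA as partners of E proteins such as Tcf3. Lmo2 has LIM domains and no DNA-binding activity of its own, and it holds Tal1 or Lyl1, GATA factors and the self-associating bridging protein Ldb1 in one complex. Gata2 binds GATA sites, and Fli1 and Erg are Ets-family factors that bind many regulatory regions of endothelial and blood genes. Together with Runx1, these factors bind shared regulatory regions in blood stem and progenitor cells, and Tal1 and Gata2 are also needed when blood cells first form.

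On GRCm38 (GENCODE M21) Tal1 lies on chromosome 4 (115056426-115071755, plus strand), Lyl1 on chromosome 8 (84701457-84704715, plus), Lmo2 on chromosome 2 (103957986-103981878, plus) and Gata2 on chromosome 6 (88193891-88207032, plus). Fli1 lies on chromosome 9 (32422204-32542861, minus), Erg on chromosome 16 (95359169-95586593, minus) and Ldb1 on chromosome 19 (46031570-46045214, minus). Of the genes that overlap them, 2 were in the tables, both protein-coding and on the other strand. Nfix overlaps Lyl1 and had 591 counts, and Pprc1 overlaps Ldb1 and had 1096. Whether the counting used strand is not given in the sources used here, so the counts of Lyl1 and Ldb1 carry that uncertainty.

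The set of RefSeq (GRCm38.p6) start sites used here covered 5 of the 7 genes, with 11 windows in all. The 250 bases before each start were searched on both strands for 4 motifs of these factor families. The GATA motif, spelled AGATAA, was in 3 of the 11 windows and in 9.99% of the 32851 windows of all genes. The Ets motif was searched as AGGAAG and was in 2 of the 11 and in 29.5% of all windows. For the E-box of the basic helix-loop-helix factors the search used CAGNTG, found in 3 of the 11 and in 44.8% of all windows. The Runx motif, with the letters TGTGGT, was in 0 of the 11 and in 14.05% of all windows. A match is only a run of letters. The 3 windows with the GATA motif are shown, since it had the lowest share of all windows among the 4 motifs. The E-box matches were in windows of Erg, Ldb1 and Lyl1. Capitals mark matches to any of the 4 motifs. The Tal1 window ends just before the first base of the gene, whereas those of Erg and Ldb1 lie inside these genes, before internal starts and outside annotated exons of the gene.
Tal1, chr4:115056176-115056425, plus strand: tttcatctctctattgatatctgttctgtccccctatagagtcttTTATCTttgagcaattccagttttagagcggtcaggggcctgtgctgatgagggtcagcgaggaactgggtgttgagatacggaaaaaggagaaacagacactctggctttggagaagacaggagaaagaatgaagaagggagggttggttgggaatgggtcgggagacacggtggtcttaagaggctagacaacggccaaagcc
Erg, chr16:95459349-95459598, minus strand: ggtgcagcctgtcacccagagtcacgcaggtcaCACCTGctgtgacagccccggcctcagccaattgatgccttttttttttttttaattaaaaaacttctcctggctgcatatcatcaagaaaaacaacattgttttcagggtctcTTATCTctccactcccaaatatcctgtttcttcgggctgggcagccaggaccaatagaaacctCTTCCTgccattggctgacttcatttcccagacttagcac
Ldb1, chr19:46037071-46037320, minus strand: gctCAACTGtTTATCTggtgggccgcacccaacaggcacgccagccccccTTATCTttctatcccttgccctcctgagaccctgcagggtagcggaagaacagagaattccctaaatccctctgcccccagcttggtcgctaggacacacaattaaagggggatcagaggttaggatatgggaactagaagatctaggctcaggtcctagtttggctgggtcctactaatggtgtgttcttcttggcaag
The Ldb1 window held 2 GATA motifs, 1 of them next to an E-box match. The Erg window held 1 GATA, 1 Ets and 1 E-box match, and the Tal1 window 1 GATA match. Lmo2 and Fli1 have no window here.

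Library 1 held 8932527 counts, with 13218 to 702028 counts per cell (median 141577), and library 2 held 12706360, with 51620 to 956593 (median 238898). No cell name occurred in both libraries. All 8 endothelial markers on the list, among them Pecam1, Kdr and Tek, had counts in both libraries, with a summed level of 2436 and 4002 counts scaled to a library total of 1000000 (CPM). Erythroid markers summed to 13.3 and 22.4 CPM, with Hba-a1 and Hba-a2 at 0 in both libraries, and megakaryocyte markers to 4.93 and 58.6 CPM. Visceral endoderm markers summed to 0 and 16.4 CPM and mast cell markers to 0 and 0.394. Macrophage and myeloid markers summed to 223 and 177 CPM, with C1qa and C1qb at 0, and blood cell markers to 491 and 321. Mesenchymal markers summed to 837 and 330 CPM, and 3 cells (2 in library 1 and 1 in library 2) had 100 or more counts of each of Col1a1, Col1a2, Col3a1 and Lum.

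All 7 factor genes were transcribed in both libraries at low to moderate levels. Levels are given as CPM of the counts summed over the cells of a library. By the study's methods a count is a distinct UMI on a 3′ transcript end, so levels were not divided by gene length. Totals of up to 956593 per cell are high for UMI counts, and whether amplified copies remain among them was not tested. By the mean of both libraries the order was Lmo2 (158 ± 6.54 CPM, SD, n = 2), Lyl1 (155 ± 43.2), Fli1 (154 ± 63.6), Erg (110 ± 48.5), Gata2 (96.01 ± 36.5), Tal1 (80.0 ± 22.2) and Ldb1 (34.4 ± 20.7). Neighbours in this order overlapped between libraries down to Tal1. Ldb1, at 19.8 and 49.0 CPM, was below both values of Tal1, 95.7 and 64.4. Runx1 had 300.4 and 136 CPM and Cdh5 463 and 632 CPM. The order of the members is that of these sums, in which deep cells weigh more. With every cell drawn at random down to 20000 counts (thinned), Fli1 was above Lmo2 in both libraries, at 161 and 190 against 151 and 116 CPM.

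The bHLH pair was detected in similar numbers of cells in library 1, and Lyl1 in more cells than Tal1 in library 2. Tal1 had a count in 30 of 43 cells of library 1 and in 33 of 44 of library 2, with per-cell CPM from 0 to 762 (median 8.15) and from 0 to 453 (median 20.0). Lyl1, at 124 and 186 CPM, was detected in 28 and 41 cells, with a per-cell median of 11.4 CPM in library 1 and 126 in library 2. In library 1, 3 cells held 62.8% of the Lyl1 counts and 58.1% of the Tal1 counts. Most cells of that library thus sat far below the CPM of the sum, and 1 cell alone held 34.4% of Lyl1.

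By the summed counts Lmo2, the LIM-domain scaffold, was the steadiest of the 7 between libraries, at 153 and 162 CPM. With cells thinned to 20000 counts it was at 151 and 116 CPM. Fli1 (161 and 190) and Erg (118 and 98.9) then lay closer together between libraries than Lmo2. Lmo2 was detected in 39 cells of each library, with per-cell medians of 39.8 and 116 CPM and highest values of 876 and 659. Ldb1, its bridging partner, had a count in 26 and 32 cells, with medians of 5.005 and 23.5 CPM and highest values of 156 and 296. The log2 ratio of library 2 to library 1 was 0.08 for Lmo2 and 1.31 for Ldb1. Over the 7598 genes at 10 CPM or more, the 5th and 95th percentiles of such ratios were -1.23 and 1.34, so even Ldb1 was within the range of these genes.

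Gata2 had 70.2 CPM in library 1 and 122 CPM in library 2. It was detected in 27 of 43 and 42 of 44 cells, with medians of 7.81 and 88.9 CPM and highest values of 425 and 644. The related gene Gata1, which drives red cell and platelet development, had no count in any of the 87 cells, which allows a share of up to 3.45% of cells with a count. Gata3 had 25.2 and 27.9 CPM.

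Over both libraries together Fli1 was the member found in most cells, 38 of 43 and 43 of 44, although in library 1 Lmo2 was found in 39. Fli1 was at 109 and 199 CPM, with per-cell medians of 34.4 and 127 CPM and highest values of 1223 and 955. Erg, its Ets-family relative, went the other way between libraries, at 144 and 75.3 CPM. Only 22 of 43 cells of library 1 had an Erg count, with a median of 1.42 CPM and a highest value of 950, against 39 of 44 cells of library 2, with a median of 35.2 and a highest value of 463. The higher Erg level of library 1 therefore came from fewer cells, of which 3 held 49.9% of its counts.

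**Figure D1:**
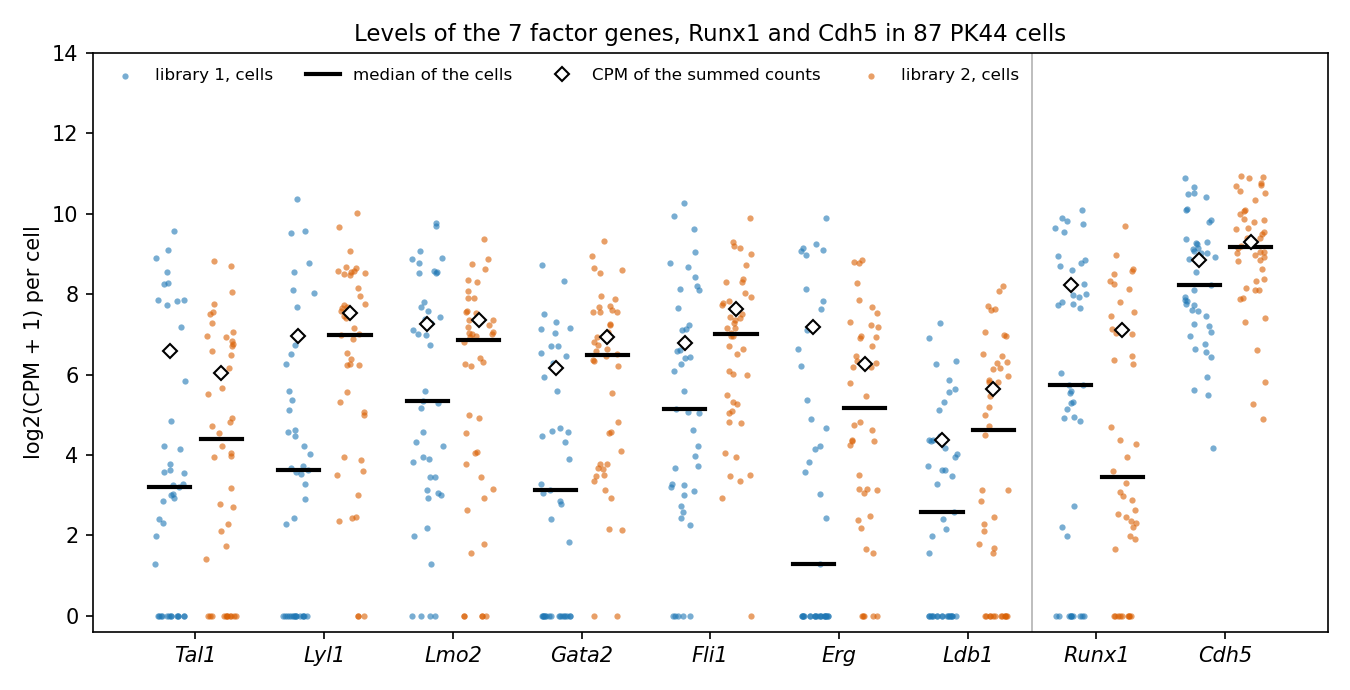
Each point is 1 of the 87 cells, plotted as log2(CPM + 1) for the 7 factor genes, Runx1 and Cdh5. Bars mark the median over cells and diamonds the CPM of the summed counts of library 1 (43 cells, blue) and library 2 (44 cells, orange). Diamonds lie above the medians for every gene, as few cells hold many counts.

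Detection moved with depth. The number of the 7 genes with a count in a cell followed the count total of the cell, with a Spearman correlation of 0.75 across 43 cells of library 1 and 0.43 across 44 of library 2, given as a description since detection and total come from the same counts. All 7 were detected in 34 of 87 cells, 11 in library 1 and 23 in library 2. With every cell thinned to 20000 counts, which left out 1 cell of library 1, all 7 were found in 1 of 86 cells and the median was 3 genes. At this fixed depth Fli1 was in 54 of 86 cells (62.8%, exact 95% binomial interval 51.7 to 73.0%), and Lyl1 and Lmo2 were each in 49 (57.0%, 45.8 to 67.6%). Gata2 was in 41 (47.7%, 36.8 to 58.7%), Erg in 36 (41.9%, 31.3 to 53.0%), Tal1 in 30 (34.9%, 24.9 to 45.9%) and Ldb1 in 28 (32.6%, 22.8 to 43.5%). The intervals pool the cells of both libraries as if independent and cover counting error only, not differences between libraries. For Lyl1 and Gata2 the shares of both libraries lay outside the pooled interval, which thus describes neither library. Gata2 was in 14 of 42 thinned cells of library 1 and in 27 of 44 of library 2. The excess of Lyl1 in library 2 remained, with 33 of 44 cells against 16 of 42. Lmo2 was in 24 of 42 and 25 of 44.

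The cell-to-cell spread was compared with the 200 genes nearest in mean level. The coefficient of variation of Tal1 was 1.86 in library 1 and 1.49 in library 2, with 50.5% and 52.0% of its neighbours more variable. For Lyl1 it was 2.26 and 1.15, with 7% and 19.5% of neighbours more variable, and for Gata2 1.71 and 1.15, with 94.0% and 48.5%. Ldb1, at 1.69 and 1.37, had 99.5% and 86.5% of neighbours more variable, so its counts were the most evenly spread for their level. Lmo2 (85.0% and 31.0%), Fli1 (65.5% and 18.0%) and Erg (15.5% and 54.5%) lay on different sides of the middle in the 2 libraries.

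Across cells the 7 genes showed little common order. Spearman correlations were computed within each library on cells thinned to 20000 counts, over 42 and 44 cells that share a library and sparse counts. Lmo2 and Fli1 gave the highest of the 21 pairs by the mean of both libraries, 0.20 in library 1 and 0.54 in library 2. Erg and Tal1 followed with 0.20 and 0.22. The partners Lmo2 and Ldb1 gave 0.01 and -0.16, Lmo2 and Tal1 0.18 and -0.20, Tal1 and Lyl1 -0.22 and 0.19, and Fli1 and Erg -0.04 and 0.04. In these last 4 pairs the sign differed between libraries. In library 2 Lmo2 and Fli1 were found together in 22 of 44 thinned cells, against 18.2 for the product of their shares, and in library 1 in 13 of 42 against 12.6.

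**Figure D2:**
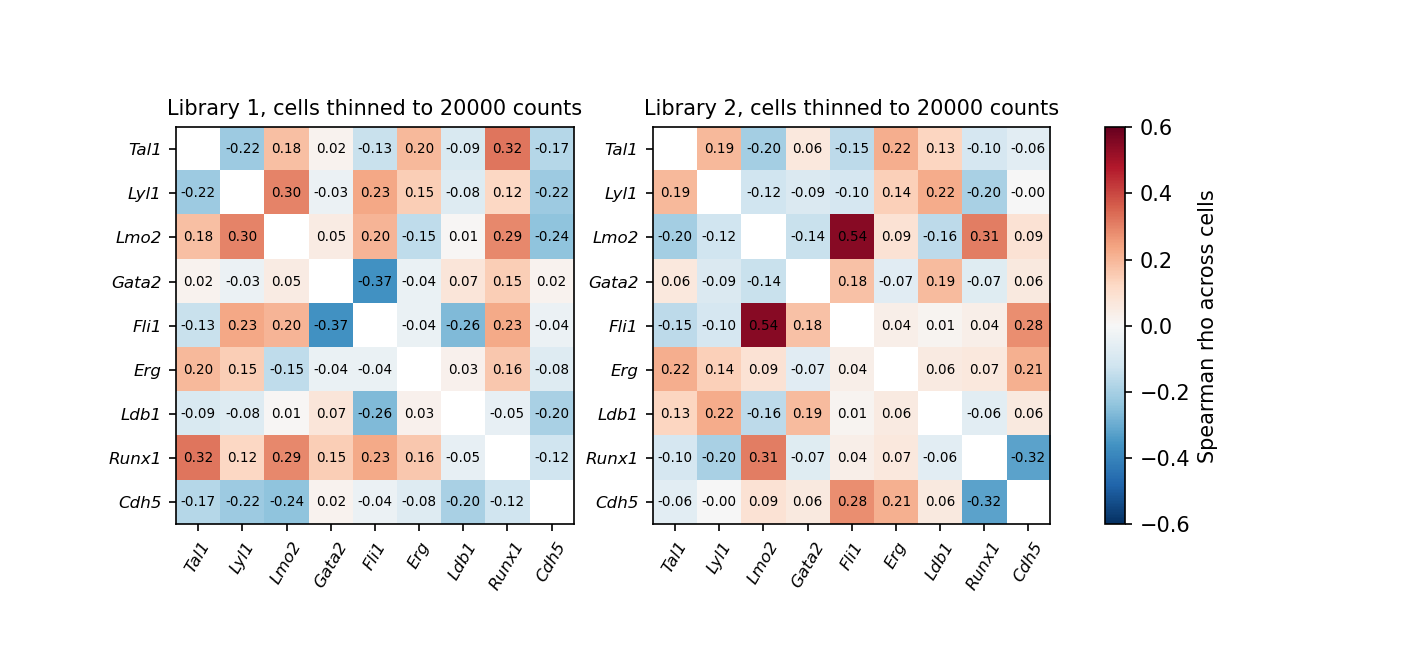
Spearman rho across cells thinned to 20000 counts for each pair of the 7 factor genes, Runx1 and Cdh5, in library 1 (42 cells) and library 2 (44 cells). Red is positive and blue negative. Lmo2 with Fli1 reached 0.54 in library 2 and 0.20 in library 1, and Lmo2 with Runx1 was 0.29 and 0.31.

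The genes most like each member were taken as the 3 with the highest mean of both libraries' rho among about 1374 genes counted in at least 50% of the thinned cells of each library. For Lmo2 these included Sde2 (0.41) and Rpl22 (0.37), and for Fli1 Kdm2a (0.39), Lmo2 (0.37) and Setd5 (0.35). Only Lmo2 and Fli1 among the members were counted in enough thinned cells to be compared in this way, so the other 5 could not appear. For Gata2 they were Adh5 (0.40), Id1 (0.38) and 2700060E02Rik (0.34), for Tal1 Pfdn6 (0.34), Rpl22l1 (0.32) and Polr2m (0.31), and for Lyl1 Mrpl54 (0.41), Pdap1 (0.40) and Zfp207 (0.37). For Erg they were Sh3bgrl (0.40), Nras (0.37) and Lrrc58 (0.36), and for Ldb1 Zc3h11a (0.40), Rbbp7 (0.39) and Cacybp (0.34). The same measure reached 0.52 for Runx1 (with Eif5a) and 0.59 for Cdh5 (with Cd93), so the members' highest values were lower. Each is the highest of about 1374 values. Detection differed too, with Cdh5 in 84 of 86 thinned cells and Runx1 in 43, against 28 to 54 for the members, and its part in rho was not tested. Some means join unlike libraries, such as Sde2 with Lmo2 (0.60 and 0.22) and Cacybp with Ldb1 (0.55 and 0.12).

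To set the factor genes against Runx1, the cells of each library were split at their median Runx1 level (52.2 CPM in library 1 and 10.03 in library 2) and the counts of each set were summed. Lmo2 had the largest difference above 0 of the 7 and Erg and Ldb1 the largest below 0, but 0 of 7 members passed the test. The Runx1-high sets held 21 and 22 cells with 457 and 226 CPM of Runx1, and the Runx1-low sets 22 and 22 cells with 15.8 and 2.94 CPM. High and low are relative to each library. Runx1-high cells of library 2 began at 11.2 CPM, whereas Runx1-low cells of library 1 reached 52.2 CPM. The sets differed in depth as well, with a median of 260240 counts per cell in the high against 95376 in the low set of library 1 and 271734 against 213444 in library 2.

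Lmo2 was at 70.6 CPM in the Runx1-low and 198 CPM in the Runx1-high set of library 1, and at 114 and 195 CPM in library 2. Both high sets were above both low sets. The log2 difference was 1.10 (SE 0.48, 95% interval 0.17 to 2.03; edgeR quasi-likelihood test with the library as a block, unadjusted p = 0.0209, adjusted p = 0.393). With every cell thinned before summing, so that deep cells weigh no more than shallow ones, it was 0.74 (unadjusted p = 0.162). After thinning, 15 of 21 high cells and 9 of 21 low cells of library 1 had an Lmo2 count, and 14 of 22 and 11 of 22 of library 2. In 3 Runx1 bins of 14 or 15 cells Lmo2 was at 46.8, 208 and 171 CPM from low to high in library 1 and at 89.8, 186 and 193 in library 2, so the lowest bin had the lowest level in both libraries and the other 2 had no common order. Within the low set of library 1, 1 cell held 47.8% of the Lmo2 counts. Across cells, rho of Lmo2 with Runx1 was 0.28 and 0.29, and 0.29 and 0.31 after thinning, whereas the 5th and 95th percentiles over 1374 genes on thinned cells were -0.23 and 0.33 in library 1 and -0.30 and 0.42 in library 2.

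The other members gave the following values. Fli1 was at 88.2 CPM in the low and 120 in the high set of library 1 and at 173 and 216 in library 2 (log2 difference 0.35, interval -0.55 to 1.26). Tal1 was at 84.8 and 102 CPM, and 62.7 and 65.5 (0.13, -1.11 to 1.37), and 1 cell held 92.9% of its counts in the low set of library 1. These 2 members were higher in the high set of both libraries without passing the test.

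Erg was at 172 CPM in the low and 128 in the high set of library 1, and at 109 and 53.0 in library 2 (log2 difference -0.76, interval -1.77 to 0.24). Ldb1 was at 28.4 and 15.1 CPM, and 63.7 and 39.2 (-0.84, -2.90 to 1.23). Lyl1 was at 132 and 120 CPM, and 219 and 163 (-0.31, -1.19 to 0.57). By these sums all 3 were lower in the high set of both libraries, again short of the test. In the low set of library 1, 1 cell held 46.1% of the Erg counts and 1 cell 44.7% of the Lyl1 counts. Detection after thinning went the other way there, in 9 of 21 high against 5 of 21 low cells for Erg and 11 against 5 for Lyl1. In library 2 it was 11 of 22 in each set for Erg and 15 of 22 high against 18 of 22 low cells for Lyl1.

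Gata2, at 59.6 CPM in the low and 76.0 in the high set of library 1 and at 144 and 107 in library 2, lay on opposite sides (log2 difference -0.07, interval -1.18 to 1.04). The intervals of the 7 members reach from -2.90 to 2.03, so 2-fold differences in either direction lie inside several of them. They were too wide to show that the members were alike in both sets.

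**Figure D3:**
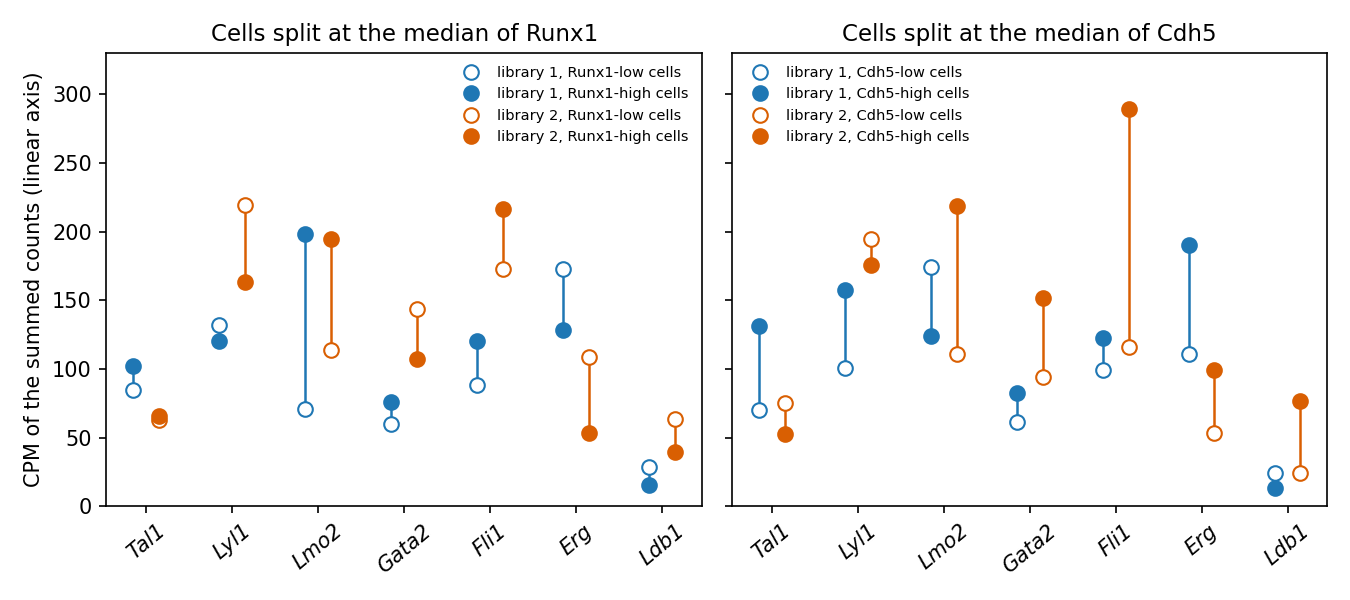
CPM of the summed counts of the 7 factor genes in the lower (open) and upper (filled) set of the cells by Runx1 (left) and by Cdh5 (right), for library 1 (blue) and library 2 (orange). Lmo2 is higher in the Runx1-high set of both libraries, at 198 against 70.6 and 195 against 114 CPM.

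Of 10629 genes tested between Runx1 sets, 166 passed at an adjusted p under 0.05 (1.56%), 40 higher (0.376%) and 126 lower (1.19%) in the Runx1-high sets, and 922 had an unadjusted p under 0.05. Among the 7 members, 1 had an unadjusted p under 0.05 (Lmo2). DESeq2 with the library as a term also called 0 of 7, with Lmo2 at an unadjusted p of 0.0316, and called 2.94% of its genes. Without the library block edgeR called 1 gene (0.00941%) and again 0 of 7, with Lmo2 at an unadjusted p of 0.0520. The median log2 difference was -0.07 for the 7 members and 0.07 for all genes. Cdh5 itself was lower in the Runx1-high sets, at 315 against 732 CPM and 432 against 931 CPM (log2 difference -1.20, SE 0.31, adjusted p = 0.0115), a call that is lost without the block (adjusted p = 0.774) and with cells thinned before summing (-0.96, adjusted p = 0.230). Mesenchymal markers summed to 48.4 and 23.4 CPM in the high and 2268 and 788 CPM in the low sets, and all 3 cells with many collagen counts were in the low sets. Blood cell markers summed to 476 CPM in the high and 520 in the low set of library 1. In library 2 they summed to 448 and 132, and none of the 6 was at 0 in the high sets. Of these 6 only Coro1a passed, higher in the Runx1-high sets (log2 difference 3.49, SE 0.56, adjusted p = 4.1e-07 in edgeR with the block). Coro1a was also called with DESeq2 and without the 3 cells, but not without the block. Macrophage and myeloid markers summed to 277 and 126, and 257 and 58.4, with C1qa and C1qb at 0. The part of all these markers in the Lmo2 values was not tested. The 3 cells had 5.16 to 7.81 CPM of Lmo2, and without them its log2 difference was 0.97 (adjusted p = 0.639).

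The same split by Cdh5 (medians 299.6 and 575 CPM) put all 7 members above 0 in the fit, and 0 of 7 passed the test. These sets too were relative to each library, with Cdh5-high cells from 377 CPM in library 1 and Cdh5-low cells up to 566 CPM in library 2. In this split the Ets factors had the largest differences. Erg was at 111 CPM in the Cdh5-low and 191 in the Cdh5-high set of library 1, and at 53.5 and 99.2 in library 2 (log2 difference 0.82, SE 0.49, 95% interval -0.14 to 1.77, adjusted p = 0.702). Fli1 was at 99.1 and 122 CPM in library 1 and at 116 and 289 in library 2 (0.79, SE 0.43, -0.06 to 1.65, adjusted p = 0.622). These differences depended on where the cells were split. With sets drawn from thinned cells they were 0.18 for Erg and 0.095 for Fli1, below 1.06 for Gata2, and between the outer 2 of 3 Cdh5 bins they were 0.29 and 0.41, below 1.18 for Gata2 and 1.04 for Ldb1. In library 1 the outer bins gave no higher level with more Cdh5, at 190 CPM in the lowest and 180.4 in the highest bin for Erg and at 120.02 and 112 for Fli1.

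Gata2 was at 61.5 CPM in the Cdh5-low and 82.4 in the Cdh5-high set of library 1 and at 94.3 and 152 in library 2 (log2 difference 0.54, interval -0.50 to 1.57). The remaining members went opposite ways in the 2 libraries. Tal1 was at 70.3 and 131 CPM in library 1, with 1 cell holding 51.1% of the counts of the high set, but at 75.2 and 52.5 in library 2 (0.17, -0.998 to 1.34). Lyl1 was at 101 and 157 CPM in library 1, with 1 cell holding 65.2% of the counts of the high set, and at 195 and 175 in library 2 (0.22, -0.62 to 1.06). In library 1, 10 of 21 high and 18 of 22 low cells had a Lyl1 count.

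Lmo2 was at 174 CPM in the Cdh5-low and 124 in the Cdh5-high set of library 1, and at 111 and 218 in library 2 (log2 difference 0.22, interval -0.63 to 1.08). Ldb1 was at 24.4 and 13.4 CPM, and at 24.1 and 76.3 (0.39, -1.86 to 2.64). For these 4 members no common direction was seen between the libraries.

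**Figure D4:**
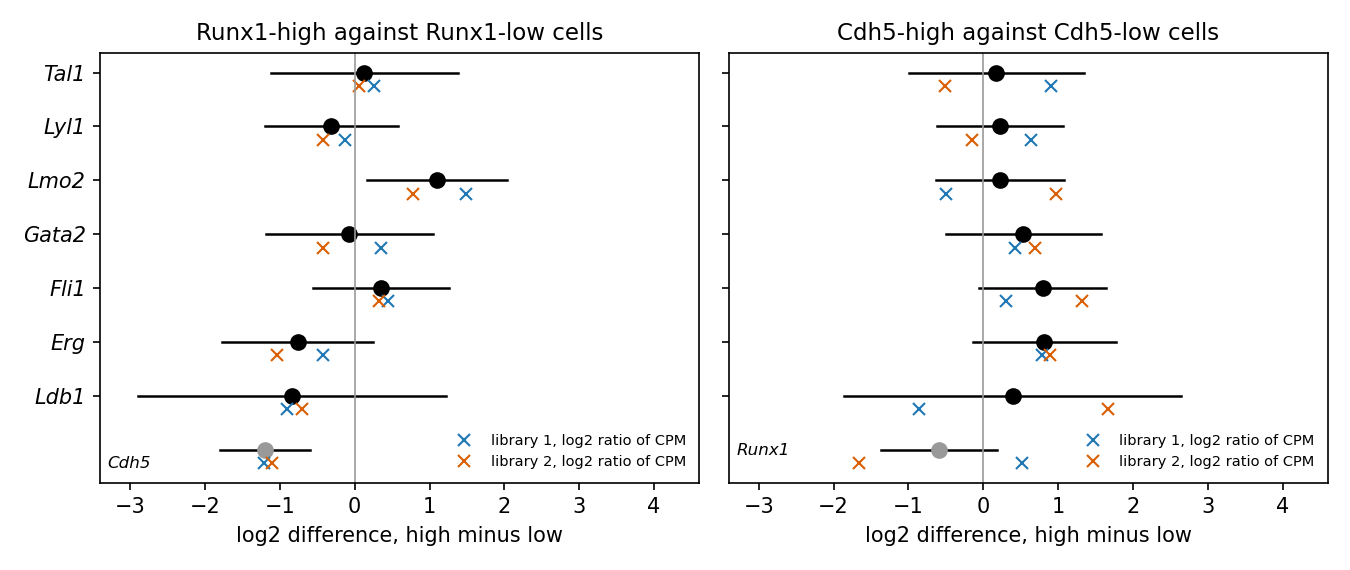
Log2 differences between high and low sets by Runx1 (left) and Cdh5 (right). Black points and lines are the edgeR estimate and its 95% interval for the 7 factor genes, grey points the other reference gene, and crosses the log2 ratio of CPM in library 1 (blue) and library 2 (orange). Among the members only the interval of Lmo2 by Runx1, 0.17 to 2.03, leaves out 0.

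Between Cdh5 sets 185 of 10692 genes passed (1.73%), 125 higher (1.17%) and 60 lower (0.561%) in the Cdh5-high sets, and 975 had an unadjusted p under 0.05, none of them a member. DESeq2 called 0 of 7 members, 0 of them at an unadjusted p under 0.05, and 1.7% of its genes. Without the block edgeR called 0 of 7 and 0% of all genes, with 536 genes at an unadjusted p under 0.05. The median log2 difference was 0.39 for the members and -0.05 for all genes. Median depth was 93911 counts per cell in the high and 168606 in the low set of library 1 and 207920 against 257500 in library 2. The 3 cells with many collagen counts were all in the Cdh5-low sets, and without them Erg and Fli1 were again not called. Of the 6 blood cell markers only Coro1a passed, lower in the Cdh5-high sets (log2 difference -1.58, SE 0.44, adjusted p = 0.0242 in edgeR with the block). Coro1a was not called without the 3 cells, without the block or with DESeq2.

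Because the 2 splits share cells and are related (rho of Runx1 with Cdh5 -0.35 and -0.47, and -0.12 and -0.32 after thinning), both were put into one additive fit over 8 sums. Again 0 of 7 members passed for either gene. Lmo2 had a log2 difference of 1.22 for Runx1 with Cdh5 held (SE 0.51, unadjusted p = 0.0199, adjusted p = 0.505) and 0.41 for Cdh5 with Runx1 held. Fli1 and Erg gave 0.77 and 0.68 for Cdh5 with Runx1 held, and Gata2 0.85, all with intervals that include 0. This fit called 45 of 10590 genes (0.425%) for Runx1 and 21 (0.198%) for Cdh5. By quadrant, Lmo2 was lowest in the cells low for Runx1 and high for Cdh5 in library 1 (42.5 CPM, 12 cells) and in the cells low for both in library 2 (44.9 CPM, 7 cells).

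Rank correlations across all cells, on CPM and given as a description, were taken against both genes. With Runx1, 4 of 7 members had the same sign in both libraries, all positive, and with Cdh5 3 of 7, none positive. Tal1 with Runx1 was 0.47 in library 1 and 0.04 in library 2, and Lyl1 with Runx1 0.32 and -0.12, so that a value in one library was not seen in the other. After thinning, Tal1 was at 0.32 and -0.10 and Lyl1 at 0.12 and -0.20. With Cdh5, Lyl1 was at -0.39 and -0.03 and Lmo2 at -0.27 and 0.24. In library 1, Erg followed depth most closely (rho of CPM with total counts 0.48), and Runx1 was at 0.34 there and 0.35 in library 2.

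The wider complex was read from a list of 13 partners and cofactors, of which 11 were tested. The LIM-domain binder Ldb2 (220 CPM, mean of both libraries) and the corepressor Cbfa2t3 (169 CPM), both above Ldb1, had the highest levels. The Ldb1-stabilizing genes Ssbp4 and Ssbp3 were at 70.4 and 59.5 CPM, with Sp1 between them at 67.1 CPM. Tal2, the other close relative of Tal1, had counts in 1 cell. Between Runx1 sets 0 of 11 passed (median log2 difference 0.07), against 1.56% of all genes tested. Between Cdh5 sets, where 1.73% of all genes tested passed, only Ldb2 did (1.42, SE 0.38, adjusted p = 0.0195), higher in the Cdh5-high cells. Without the 3 cells with many collagen counts, without the block or with DESeq2 it was not called.

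Among E proteins and their Id inhibitors, 6 of 7 were tested. Id3 (496 CPM), Id1 (361 CPM) and Tcf4 (224 CPM) were the most abundant, and Tcf12 and Tcf3 had 115 and 84.7 CPM. None passed between Runx1 sets, where 1.56% of all genes tested did, and 1 passed between Cdh5 sets, where 1.73% did. Tcf4 was higher in the Cdh5-high sets (log2 difference 1.25, SE 0.37, adjusted p = 0.0440) in the edgeR fit with the block, and not under the same 3 alternatives.

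Genes that these factors are known to bind were read from a blood list and an endothelial list. Both lists were drawn up with earlier results of these data known, and no binding was measured here. Of 16 blood genes, 14 were tested, and 2 were higher in the Runx1-high sets, Kit, the stem cell factor receptor (1.95, SE 0.52, adjusted p = 0.0175), and the lymphoid factor gene Ikzf1 (2.98, SE 0.64, adjusted p = 0.000687). Between Cdh5 sets 4 were lower in the Cdh5-high cells, Kit (-1.84), Spi1 (-2.03), Myb (-3.76) and Ikzf2 (-2.36). Over all genes tested, 1.56% passed by Runx1 and 1.73% by Cdh5 in either direction. The list median was 1.62 for Runx1 and -1.73 for Cdh5. Without the 3 cells with many collagen counts Ikzf1 alone was called by Runx1, and Kit and Ikzf2 by Cdh5, and without the block none was. Kit is part of the sorting gate, so these cells had already been chosen for Kit protein.

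All 16 endothelial genes on the list of Fli1 and Erg targets had values below 0 between Runx1 sets and above 0 between Cdh5 sets. Several, such as Pecam1, Kdr and Tek, are on the endothelial marker list together with Cdh5, so a like direction by Cdh5 says little about Fli1 or Erg. Of all genes tested, 1.56% passed by Runx1 and 1.73% by Cdh5. The test passed for 6 of the 16 by Runx1 (Aplnr, Cldn5, Dll4, Kdr, Tek and Vwf, all lower in Runx1-high cells). By Cdh5 it passed for 8 (Cldn5, Dll4, Egfl7, Icam2, Kdr, Pecam1, Tek and Vwf, all higher in Cdh5-high cells). Kdr, the main VEGF receptor gene, differed by -1.61 and 1.85, and Dll4, a Notch ligand gene, by -2.71 and 2.08. The list medians were -0.94 and 1.26. Fli1 and Erg themselves gave 0.35 and -0.76 by Runx1 and 0.79 and 0.82 by Cdh5. Without the 3 cells with many collagen counts 7 of the 16 passed by Runx1 and 3 by Cdh5, and without the block 0 did in either split.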

How the data were processed

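Single-cell RNA-seq of E10.0 yolk sac PK44 cells was read from 2 deposited count tables. The authors split reads by cell barcode, aligned them to mm10 with HISAT2 2.1.0, counted uniquely mapped reads with HTSeq and removed UMI duplicates, and they kept cells above a least number of genes and transcripts. As a guard against doublets they left out cells with too many raw reads or genes. No doublet caller was run here. Deposited values are whole counts, 13218 to 956593 per cell, and CPM were computed from them.

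The 7 genes, the gene lists and the tests were chosen with earlier results of these data known. Named genes were all 7 members, Runx1, Cdh5, list genes that passed a test, otherwise the most abundant, and the 3 genes most like each member, of which 1 is not reported here. Counts were summed per library and level set (4 sums, or 8 quadrant sums), since cells are not replicates, and tested with edgeR 4.0.16 (filterByExpr, TMM, quasi-likelihood, Benjamini-Hochberg over all genes, threshold 0.05), with the library as a block because both sets come from one library. For each set, the deviation of library 1 from the mean of both libraries was taken per gene. Across genes these deviations correlated between the high and low sets at 0.197 (Runx1) and 0.189 (Cdh5). The gene that set a split was left out of its fit. In the 4-sum fits with the block, edgeR gave all genes a single shared spread around the trend. Their p-values thus rest only on how far set differences varied between these 2 libraries over genes of like level, which may be technical. In the 8-sum fit the spread among quadrants of the same library enters as well. DESeq2 1.42.0, other scaling, no filter, thinned cells, 3 bins, and fits without the block, without each library or without 3 collagen-rich cells were alternatives. A list of barcodes and a list of barcodes used were not used.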

Additional observations from a re-analysis of the deposited data

How the results depend on the processing

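No member passed the test between Runx1 or Cdh5 sets, or in the additive fit, under any of the alternatives that gave a test. The counts of all genes called varied widely. Between Runx1 sets 166 genes passed, against 294 with DESeq2, 91 between the outer 2 of 3 bins, 23 with cells thinned before summing and 1 with no replicate block. Between Cdh5 sets 185 passed, against 76 without the 3 mesenchymal-marker cells, 72 and 62 with cells thinned before summing or before splitting, and 0 with no replicate block. In the additive fit 45 passed for Runx1, against 232 with DESeq2, 88 with no filter, 11 without the 3 cells, 0 with no block and 9 to 135 when a library was left out. For Cdh5 21 passed there, against 127 with DESeq2, 63 with no filter, 12 without the 3 cells, 0 with no block and 28 to 40 when a library was left out. The cause of these shifts was not tested. With 1 library the 4-sum fits leave no residual degrees of freedom, so they gave values with no test.

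Several uncalled log2 differences changed sign. By Runx1, Tal1 went to -0.24 with sets from thinned cells, Gata2 to 0.27 and Fli1 to -0.035 with thinned sums, and Gata2 lay between -0.43 and 0.31 with single libraries. By Cdh5, Lyl1 went to -0.45 and Lmo2 to -0.052 with thinned sums, Lmo2 to -0.032 and Runx1 to 0.19 with sets from thinned cells, and Lmo2 to -0.070 between the outer 2 of 3 bins. With single libraries Tal1 lay between -0.58 and 0.91, Lyl1 between -0.22 and 0.66, Lmo2 between -0.48 and 0.91, Ldb1 between -0.85 and 1.60 and Runx1 between -1.73 and 0.54. In the additive fit Tal1 for Runx1 went to -0.25 with sets from thinned cells, and with single libraries it lay between -0.090 and 1.37 and Gata2 between -0.24 and 1.29. For Cdh5, Lyl1 went from -0.01 to 0.01 with DESeq2 (0.0074), DESeq2 size factors (0.0071) or no filter (0.0051), and Lyl1 to 0.11 and Lmo2 to -0.10 with sets from thinned cells. With single libraries it lay between -0.64 and 2.16 for Tal1, -0.36 and 0.27 for Lyl1, -0.63 and 1.40 for Lmo2, and -1.07 and 1.59 for Ldb1. Lmo2 by Runx1 stayed above 0 in all 8 alternatives with both libraries, from 0.74 to 1.44, and in single libraries, at 0.77 and 1.45. Its adjusted p was 0.267 to 0.880, and with cells thinned before summing its unadjusted p was 0.162.

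By detection, 7 members had a count in over 50% of the cells of both libraries, against 2 with cells thinned to 20000 counts and 5 when thinned to 50000. Correlations with Runx1 or Cdh5 had the same sign in both libraries for 7 of 14 pairs, and for 7 or 8 under the alternatives. Low counts per cell limit detection, and 2 libraries limit every test.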
